A study of Sus scrofa with 12 samples.

Results

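Integrins are the receptors by which cells hold the extracellular matrix. The 10 subunits described here belong to receptors for collagen, laminin, fibronectin and related matrix proteins. They are not all the integrins that bind matrix, and they were listed as a gene family by name (ITGA1, ITGA5, ITGA7, ITGA8, ITGA10, ITGA11, ITGAV, ITGB1, ITGB3 and ITGB5). The listing rule uses no measured value, but the family was picked for description with earlier results of these data known. All 10 had 1 gene identifier each among the 35682 genes counted, were detected in 12 of 12 libraries and passed the filter on low counts, which left 13844 genes for the test.

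The libraries came from the left ventricles of 6 female Yorkshire pigs aged 10 to 12 weeks, named by the numbers 1022, 1322, 1323, 1623, 1922 and 3622, with 1 library of the border zone, beside the infarct, and 1 of the remote zone, on the posterior wall, from each animal. In all of them the left anterior descending artery had been closed with a balloon for 60 minutes and then reopened, and all were immunosuppressed from day 9 after the injury with prednisolone at 20 mg/day, tacrolimus at 0.75 mg/kg/day and 500 mg/day of mycophenolate mofetil. On day 14 the pigs received either scaffold-free vascular organoids of human endothelial progenitor cells (EPC) and smooth muscle cells (SMC) or fibrin glue, and the tissue was taken 28 days after that thoracotomy. The labels do not give the treatment of each animal, so each zone pools the pigs without regard to treatment, and the treatments were not compared. The zones were compared only with each other, tissue beside the infarct against muscle far from it. By the study's methods, the organoids were laid over the infarct and the border zones around it and held with fibrin glue. The zones of a treated pig thus also differ in what was laid on them. This cannot be told apart here from nearness to the infarct.

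An integrin is a pair of an alpha and a beta chain, both of which cross the membrane, and the pair decides which ligand is bound. The chains of ITGA1, ITGA10 and ITGA11, like that of ITGA2, join the beta-1 chain of ITGB1 to bind collagens, ITGA7 joins it in striated muscle to bind laminin of the basement membrane, and ITGA5 and ITGA8 join it to bind fibronectin and nephronectin through the short RGD motif. The alpha-V chain of ITGAV pairs with the products of ITGB1, ITGB3, ITGB5, ITGB6 or ITGB8, binds RGD ligands such as vitronectin and osteopontin, and can release active TGF-beta from its latent complex. Inside the cell, talin and kindlin bind the beta tail and couple it to actin.

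Of the 10 subunits, 1 was called higher in the border zone, ITGA11 (8.25-fold over the remote zone, adjusted p = 0.0338, edgeR quasi-likelihood test with Benjamini-Hochberg adjustment over all genes tested), and 0 were called lower. Over all genes tested, 2.06% were called higher and 0.0144% lower at the same threshold of an adjusted p under 0.05. Without adjustment, 6 members lay on the higher side at a p under 0.05 and 0 on the lower side, against 17.0% and 7.78% of all genes. With the animal as a block in the edgeR model, 0 members were called in either direction, against 0.289% of all genes called higher and 0.00722% lower, and 5 members had an unadjusted p under 0.05, against 29.4% of all genes. By the DESeq2 Wald test 4 members were called higher (ITGA10, ITGAV, ITGB1 and ITGB3) and 0 lower, among the 8 to which it gave a p, against 8.42% and 1.83% of all genes. DESeq2 gave no p to ITGA8 or to ITGA11, the member called by edgeR. It set both aside over an outlying count in the border zone library of animal 1022. The median log2 fold change (border zone over remote zone) was 0.79 over the members and 0.04 over all genes, and 8 of the 10 members had a value above 0, against 53.3% of all genes. Since the tissue was sequenced in bulk, a different number of cells of a type and a different amount of RNA per cell cannot be told apart in any of these values.

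**Figure D1:**
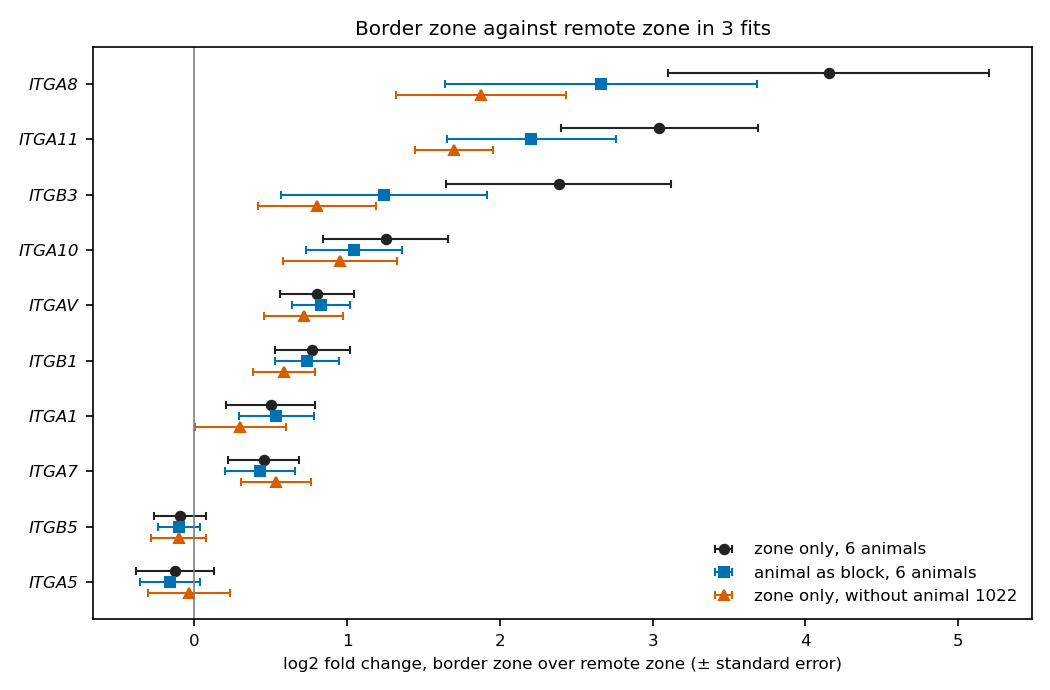
Log2 fold change of each of the 10 integrin subunits, border zone over remote zone, from the edgeR fit (points, with bars of 1 standard error), with zone as the only term, with the animal as a block and without animal 1022. ITGA8, ITGA11 and ITGB3 lie farthest to the right in the first fit (4.15, 3.05 and 2.39) and move to 1.88, 1.70 and 0.80 without animal 1022, while ITGA5 and ITGB5 stay near 0.

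Libraries held between 15130210 and 31618680 counts on genes, and 2 of the border zone stood apart. The border zone library of animal 1022 had the lowest summed level of cardiomyocyte markers, 9616 CPM (read counts scaled to a common library size with TMM factors), where the other border zone libraries held 34465 to 50717, and the highest of fibroblast markers. Every library of both zones carried cardiomyocyte markers, the labelled tissue being heart. The border zone library of animal 3622 had the lowest total and counts on 28024 genes, where every other library had 16932 to 20148, and in this animal the order of the library names of the zones is the reverse of that in the other 5, so an exchange of its 2 labels is a doubt that the labels do not settle. As in the other 5 animals, its library labelled border zone held more of the fibroblast markers and less of the cardiomyocyte markers than its library labelled remote zone. For 7 of the 10 members the highest of the 12 libraries was the border zone library of animal 1022, as for 29.9% of all genes, and values without animal 1022 or 3622 stand beside the results that they move most.

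Sequence upstream of 3 members is shown because they bracket the family: ITGA11 was the member called, ITGA8 had the largest fold change, and ITGA5 lay near 0. Each run below reaches from 250 bases before to 50 bases after the start of the RefSeq gene in the genome Sscrofa11.1, written 5′ to 3′ on the strand of the gene, with capitals marking every match of the motifs named after it.
ITGA11 (chr1:166310997-166311296, minus strand): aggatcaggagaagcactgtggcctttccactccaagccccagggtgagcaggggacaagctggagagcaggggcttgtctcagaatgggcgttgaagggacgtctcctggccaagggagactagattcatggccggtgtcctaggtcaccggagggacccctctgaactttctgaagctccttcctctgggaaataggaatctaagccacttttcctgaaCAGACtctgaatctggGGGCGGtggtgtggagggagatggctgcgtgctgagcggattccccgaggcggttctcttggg
ITGA8 (chr10:46132637-46132936, plus strand): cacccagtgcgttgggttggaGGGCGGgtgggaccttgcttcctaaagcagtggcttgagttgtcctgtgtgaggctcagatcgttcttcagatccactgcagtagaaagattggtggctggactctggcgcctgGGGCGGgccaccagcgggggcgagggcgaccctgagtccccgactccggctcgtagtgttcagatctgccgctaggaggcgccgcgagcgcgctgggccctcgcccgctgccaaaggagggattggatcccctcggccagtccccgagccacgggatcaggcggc
ITGA5 (chr5:19610531-19610830, minus strand): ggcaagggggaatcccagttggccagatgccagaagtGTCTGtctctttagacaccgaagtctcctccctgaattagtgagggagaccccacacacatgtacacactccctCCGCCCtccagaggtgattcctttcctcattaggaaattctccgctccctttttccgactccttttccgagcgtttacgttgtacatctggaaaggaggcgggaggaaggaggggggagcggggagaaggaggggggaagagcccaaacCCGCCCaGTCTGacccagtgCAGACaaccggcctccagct

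The letters searched, on both strands, were CAGAC (a SMAD-binding box), GGAATG (bound by TEAD factors), TGANTCA (AP-1), GGGCGG (the GC box of SP1), TATAAA and, by name, the CArG box of serum response factor. In the ITGA11 run CAGAC stood 29 bases and GGGCGG 13 bases before the gene start. The ITGA8 run held GGGCGG at 229 and 115 bases before the start, and the ITGA5 run held CAGAC 3 times and GGGCGG 2 times. No match overlapped another in these 3 runs. Over the 10 members CAGAC was present in 6 and GGGCGG in 7, against 45.0% and 50.6% of 19556 promoters of protein-coding genes cut the same way. GGAATG was present in 2 (11.8% of all), TATAAA in 1 (10.9%), and TGANTCA and the CArG box in 0 (6.07% and 1.53%). These matches describe the letters in the window and are not shown to be bound.

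Among the collagen receptors, ITGA11 had the largest fold change between the zones. ITGA11 (ENSSSCG00000004961, chr1:166186601-166311046, minus strand, 30 merged exons) encodes the chain of the receptor for fibrillar collagen that is known from fibroblasts. Its level in the border zone ran from 14.0 to 190.9 CPM with a median of 22.7, and in the remote zone from 4.20 to 9.28 with a median of 5.49. Every border zone library lay above every remote zone library, a separation that 1.99% of all genes tested showed in that direction and 0.701% in the other, and no other member showed it. The log2 fold change was 3.05 (SE 0.65, edgeR adjusted p = 0.0338).

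Within the animals, the border zone held 45.5 times the remote level of ITGA11 in animal 1022, 6.26 times in animal 1623 and 4.12 times in animal 3622. The ratio was 2.93 in animal 1922 and 2.20 in animal 1323, and animal 1322 held 14.0 CPM in the border zone against 6.49. Of the ITGA11 level summed over the 6 border zone libraries, 65.1% came from animal 1022. The summed level of fibroblast markers moved with it, with every border zone library (798.2 to 3076 CPM) above every remote zone library (352.5 to 664.7 CPM), and its part in the result was not tested. Without animal 1022 the log2 fold change fell to 1.70 while its error fell from 0.65 to 0.26, and the edgeR adjusted p was 0.0101. With the animal as a block it was 2.21 (edgeR adjusted p = 0.0808), and over 13 alternatives the adjusted p ran from 0.00841 to 0.227, with 6 of them under the threshold. Leaving out animal 1323, 1623, 1922 or 3622 gave an edgeR adjusted p of 0.110, 0.116, 0.0825 and 0.101, at log2 fold changes of 3.34, 3.12, 3.18 and 3.18.

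ITGA10 (ENSSSCG00000006687, chr4:99422469-99440756, plus strand) encodes the collagen receptor chain best known from cartilage. It ran from 1.89 to 18.5 CPM in the border zone (median 8.06) and from 2.81 to 5.47 in the remote zone (median 3.10). The border zone was higher in 5 of 6 animals and lower in animal 1922, the zones overlapped, and the log2 fold change of 1.25 (SE 0.41) did not pass the test (edgeR adjusted p = 0.0976). Over 14 alternatives its adjusted p ran from 0.0421 to 0.237 and 2 were under the threshold, DESeq2 and library totals. ITGA1 (ENSSSCG00000016885, chr16:32130265-32309917, plus strand), a receptor chain for basement membrane and other collagens, ran from 9.35 to 24.2 CPM in the border zone (median 14.2) and from 4.88 to 15.6 in the remote zone (median 10.9). It was higher in 4 of 6 animals, lower in 1323 and 1623, and its log2 fold change was 0.50 (SE 0.29, edgeR adjusted p = 0.302), or 0.30 without animal 1022. PELO on the same strand and the long noncoding RNA LOC106506482 on the opposite strand lie over 124 exon bases of ITGA1, and since the libraries do not keep strand, reads there cannot be told apart.

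The ratio of ITGA11 to ITGA10, which share the beta-1 partner, rose from the remote to the border zone in 6 of 6 animals. The log2 ratio differed between the zones by 1.31 ± 1.30 (SD, n = 6 animals), from 0.26 to 3.50 (two-sided exact permutation of signs within animals, p = 0.03125, the smallest that 6 animals allow, and 0.0469 adjusted over the 3 pairs compared). The upper end was animal 1022 and the lower end was animal 1323.

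Set per kilobase of merged RefSeq exons, ITGA11 made up 55.1 to 88.3% (median 64.2%) of the summed level of ITGA1, ITGA10 and ITGA11 in the border zone, against 31.6 to 57.7% (median 41.9%) in the remote zone. The share was higher in the border zone of each animal, by little in animal 1322 (55.1 against 52.3%) and by most in animal 1022 (88.3 against 33.3%). ITGA1 made up a median of 17.1% in the border zone and 38.0% in the remote zone, and ITGA10 a median of 14.5% and 19.0%. The counts were made on Ensembl genes, so these lengths are approximate. ITGA2, another collagen-binding chain, is not in this sum and ran from 0.49 to 8.19 CPM in the border zone and from 0.24 to 0.99 in the remote zone (log2 fold change 2.30, SE 0.73, edgeR adjusted p = 0.0911, or 1.06 without animal 1022).

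**Figure D2:**
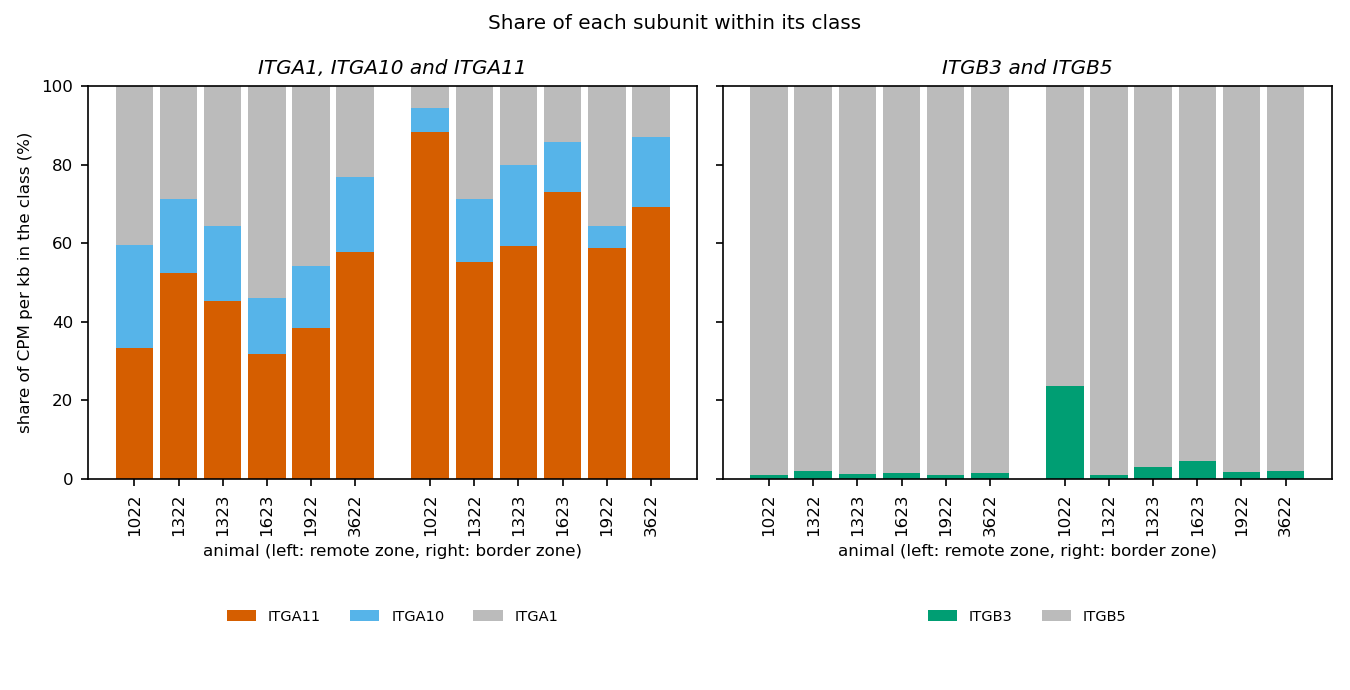
Share of each subunit (%) in the summed CPM per kilobase of its class, for 3 collagen-binding alpha chains, ITGA1, ITGA10 and ITGA11 (left) and the beta chains ITGB3 and ITGB5 (right), with 1 bar for each of the 12 libraries. The ITGA11 share is higher in the border zone bar than in the remote zone bar of each animal, and the ITGB3 share reaches 23.5% in the border zone of animal 1022 and is under 5% elsewhere.

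ITGA7 (ENSSSCG00000036237, chr5:21126565-21150875, minus strand) encodes the laminin receptor chain that ties striated muscle fibres to their basement membrane. Its level ran from 464.1 to 999.3 CPM in the border zone (median 673.1) and from 333.0 to 660.6 in the remote zone (median 501.5). The highest border zone library was that of animal 3622 (log2 fold change 0.31 without it), the zones overlapped, and the border zone was higher in 4 of 6 animals. The log2 fold change of 0.46 (SE 0.23) did not pass the test (edgeR adjusted p = 0.238). Beside it, the summed level of 8 cardiomyocyte markers was lower in the border zone of 6 of 6 animals, 9616 to 50717 CPM against 40250 to 69441, with a median log2 fold change of -0.46, or -0.26 without animal 1022. Of these 8 markers, edgeR called 0 lower, DESeq2 called 1 lower, and 1 was lower at an unadjusted p under 0.05, against 0.0144%, 1.83% and 7.78% of all genes, and their part in the result was not tested.

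Of the alpha chains that read the RGD motif, ITGA8 had the largest fold change and ITGA5 the smallest. ITGA5 (ENSSSCG00000000293, chr5:19587361-19610580, minus strand), the chain of the main fibronectin receptor, ran from 134.2 to 345.7 CPM in the border zone (median 252.6) and from 161.6 to 366.1 in the remote zone (median 276.5). The zones overlapped over nearly their whole range, the border zone was higher only in animal 1322, and the log2 fold change was -0.13 (SE 0.26, edgeR adjusted p = 0.797). It was -0.31 without animal 1322 (edgeR adjusted p = 0.481) and -0.03 without animal 1022. It was 0.10 when the libraries were scaled by their totals alone, which moved the median of all genes to 0.32. The ratio of ITGA5 to ITGA7 was lower in the border zone of 6 of 6 animals, with a difference of the log2 ratio of -0.58 ± 0.50 (SD, n = 6, two-sided exact permutation of signs, p = 0.03125, adjusted p = 0.0469). It ran from -1.32 in animal 3622 to -0.037 in animal 1922, where the ratio hardly differed between the zones. Taken as unpaired libraries, the mean difference did not pass (adjusted p = 0.152, two-sided exact permutation of the zones). This ratio compares the subunits with each other and does not say which of them moved.

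ITGA8 (ENSSSCG00000011046, chr10:46132887-46303659, plus strand) encodes the chain that binds nephronectin and fibronectin with beta-1 and is known from mesenchymal and smooth muscle cells. By the zone medians per length it was the least abundant member, though not the lowest in each border zone library, with 3 to 51 counts per library in the remote zone and 27 to 2539 in the border zone. In CPM it ran from 1.31 to 83.9 in the border zone (median 4.73) and from 0.12 to 2.47 in the remote zone (median 0.865). The border zone was higher in 5 of 6 animals and lower in animal 1322, whose border zone library lay inside the remote range.

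Its log2 fold change of 4.15 (SE 1.05) was the largest of the members and missed the threshold (edgeR adjusted p = 0.0520). Of the ITGA8 level summed over the 6 border zone libraries, 79.4% came from animal 1022, and without this animal the log2 fold change was 1.88 (SE 0.55, edgeR adjusted p = 0.133). Over 12 alternatives the adjusted p ran from 0.0239 to 0.270 and 2 were under the threshold, library totals and the fit without animal 1322 (0.0393). In 4 animals, 1323, 1623, 1922 and 3622, the border zone held 4.65, 7.82, 5.37 and 5.08 times the remote level.

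The genes whose pattern over the 12 libraries was most like that of ITGA8, by the root mean square difference of centred log2 CPM, were CCN4 (0.57), BGN (0.68), CXCL14 (0.77), MYO1D (0.77) and AEBP1 (0.78). Each of them was highest in the border zone library of animal 1022, as ITGA8 was. That follows in part from picking them by likeness to ITGA8, and 29.9% of all genes tested were highest in that library. BGN encodes the matrix proteoglycan biglycan and CCN4 a secreted matricellular protein.

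The partners shared by several receptors, ITGAV and ITGB1, had a higher level beside the infarct in each of the 6 animals and did not pass the test. ITGAV (ENSSSCG00000016027, chr15:91604666-91711843, plus strand) ran from 84.2 to 158.4 CPM in the border zone (median 135.1) and from 44.3 to 110.6 in the remote zone (median 71.2). Its log2 fold change was 0.80 (SE 0.24, edgeR adjusted p = 0.0827). The border zone held 1.18 times the remote level in animal 1922 and 2.69 times in animal 3622, and 2 border zone libraries, those of animals 1322 and 1922, lay below the highest of the remote zone, that of animal 1323.

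ITGB1 (ENSSSCG00000011101, chr10:56078393-56130608, minus strand), the beta chain that pairs with every alpha chain described here, ran from 212.9 to 574.7 CPM in the border zone (median 329.7) and from 138.7 to 276.4 in the remote zone (median 198.9). The border zone held 1.09 times the remote level in animal 1922 and 2.58 times in animal 1022, and the zones overlapped through animals 1322 and 1922. The log2 fold change was 0.77 (SE 0.25, edgeR adjusted p = 0.0939).

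Being higher in 6 of 6 animals held for 3 members, ITGA11, ITGAV and ITGB1, and for 11.7% of all genes tested, and 0 members were lower in 6 of 6, against 11.1%. Without animal 1022 the log2 fold changes of ITGAV and ITGB1 were 0.72 (SE 0.26) and 0.59 (SE 0.20), with edgeR adjusted p = 0.191 and 0.181. Without animal 3622, which had among the largest differences of both, they were 0.70 and 0.70 (edgeR adjusted p = 0.209 and 0.223). Over 14 alternatives the adjusted p ran from 0.0282 to 0.227 for ITGAV, of which 3 were under the threshold, and from 0.0340 to 0.229 for ITGB1, of which 2 were.

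**Figure D3:**
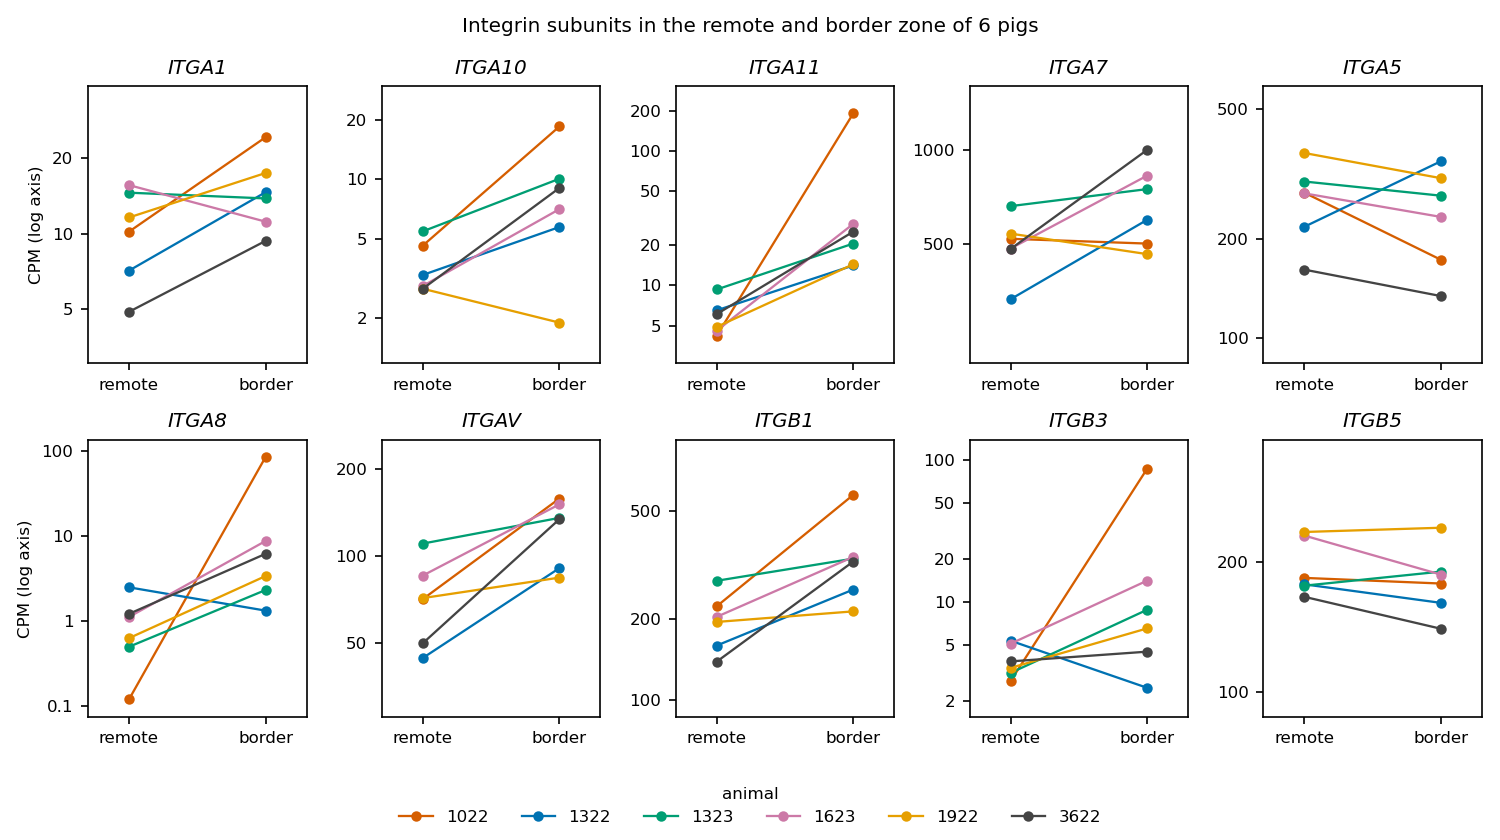
Level (CPM scaled by TMM factors, log axis with its own range in each panel) of the 10 subunits in the remote and the border zone, with 1 line for each of the 6 animals. All 6 lines rise for ITGA11, ITGAV and ITGB1, and the line of animal 1022 ends far above the others for ITGA8, ITGA11 and ITGB3.

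Of the beta chains that can stand in for beta-1 beside alpha-V, those of ITGB3 and ITGB5 are members. ITGB3 (ENSSSCG00000017306, chr12:16694466-16752228, minus strand), the beta chain of the vitronectin receptor and of the fibrinogen receptor of platelets, ran from 2.48 to 86.6 CPM in the border zone (median 7.65) and from 2.77 to 5.33 in the remote zone (median 3.62). It was higher in 5 of 6 animals and lower in animal 1322, and 70.4% of its summed border zone level came from animal 1022, where it reached 86.6 CPM against 14.1 in the next library. The log2 fold change was 2.39 (SE 0.74, edgeR adjusted p = 0.0876), and 0.80 (SE 0.38, edgeR adjusted p = 0.312) without animal 1022. Over 14 alternatives the adjusted p ran from 0.0118 to 0.318 and 2 were under the threshold, DESeq2 and library totals.

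ITGB5 (ENSSSCG00000037905, chr13:135468111-135587483, plus strand), the beta chain of the other vitronectin receptor, ran from 140.0 to 240.2 CPM in the border zone (median 182.6) and from 166.1 to 234.8 in the remote zone (median 180.6). The zones overlapped, the border zone was higher in 2 of 6 animals, and the log2 fold change was -0.09 (SE 0.17, edgeR adjusted p = 0.774), or 0.17 on library totals. The log2 ratio of ITGB3 to ITGB5 differed between the zones by 1.41 ± 1.97 (SD, n = 6), higher in 5 of 6 animals, and did not pass the test (two-sided exact permutation of signs, p = 0.125, adjusted p = 0.125). Without animal 1022 the difference was 0.70.

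Per kilobase, ITGB3 made up 0.97 to 23.5% (median 2.42%) of the sum of both chains in the border zone, against 0.918 to 1.87% (median 1.25%) in the remote zone. The value of 23.5% belongs to animal 1022. The other beta partners of alpha-V are not in this sum, and ITGB6 had medians of 53.1 CPM in the border zone and 70.3 in the remote zone and ITGB8 of 11.3 and 8.20. Markers of platelets, which carry ITGB3, summed to 5.80 to 16.9 CPM in the border zone, against 6.64 to 12.6 in the remote zone, with animal 3622 the highest. Markers of osteoclast-like cells, which also carry ITGB3, summed to 21.6 to 2210 CPM in the border zone, with animal 1022 the highest and 275.1 the next, and to 12.7 to 19.5 in the remote zone. Of the 7 in this sum only 2 passed the filter on low counts and were tested. Of these 1, ACP5, was called higher (edgeR adjusted p = 0.0493), against 2.06% of all genes. It was not called with the animal as a block (edgeR adjusted p = 0.179) or without animal 1022 (0.139). Their part in the result was not tested.

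**Figure D4:**
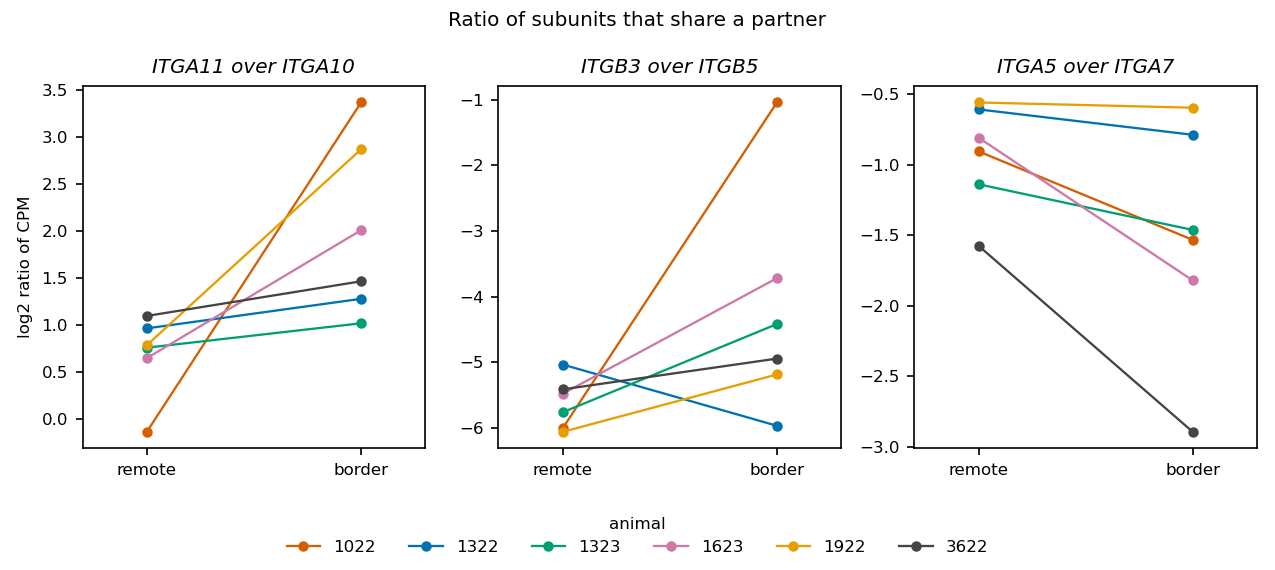
Log2 ratio of the subunits in each of 3 pairs (ITGA11 to ITGA10, ITGB3 to ITGB5 and ITGA5 to ITGA7) in the remote and the border zone, with 1 line for each of the 6 animals. ITGA11 to ITGA10 rises and ITGA5 to ITGA7 falls in 6 of 6 animals, and ITGB3 to ITGB5 rises in 5 of 6.

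Compared per kilobase of exon, ITGA7 was the most abundant chain in both zones. The order of the remote zone medians (CPM per kilobase) was ITGA7 (114.7), ITGB5 (62.5), ITGA5 (54.3), ITGB1 (25.5), ITGAV (9.99), ITGA11 (1.05), ITGA1 (1.05), ITGB3 (0.794), ITGA10 (0.425) and ITGA8 (0.136). Neighbours in this order overlapped in their ranges, except ITGB1 with ITGAV and ITGAV with ITGA11.

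In the border zone the order was the same but for ITGB3 and ITGA1, which changed places, and the medians were 153.9 for ITGA7, 63.2 for ITGB5, 49.6 for ITGA5, 42.3 for ITGB1 and 18.9 for ITGAV. Below these stood ITGA11 at 4.36, ITGB3 at 1.68, ITGA1 at 1.37, ITGA10 at 1.11 and ITGA8 at 0.746. Here neighbours overlapped except ITGA7 with ITGB5 and ITGB1 with ITGAV. Relative to their medians, the widest ranges were those of ITGA8 (0.207 to 13.2), ITGB3 (0.545 to 19.0) and ITGA11 (2.69 to 36.6), each with its upper end in animal 1022.

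**Figure D5:**
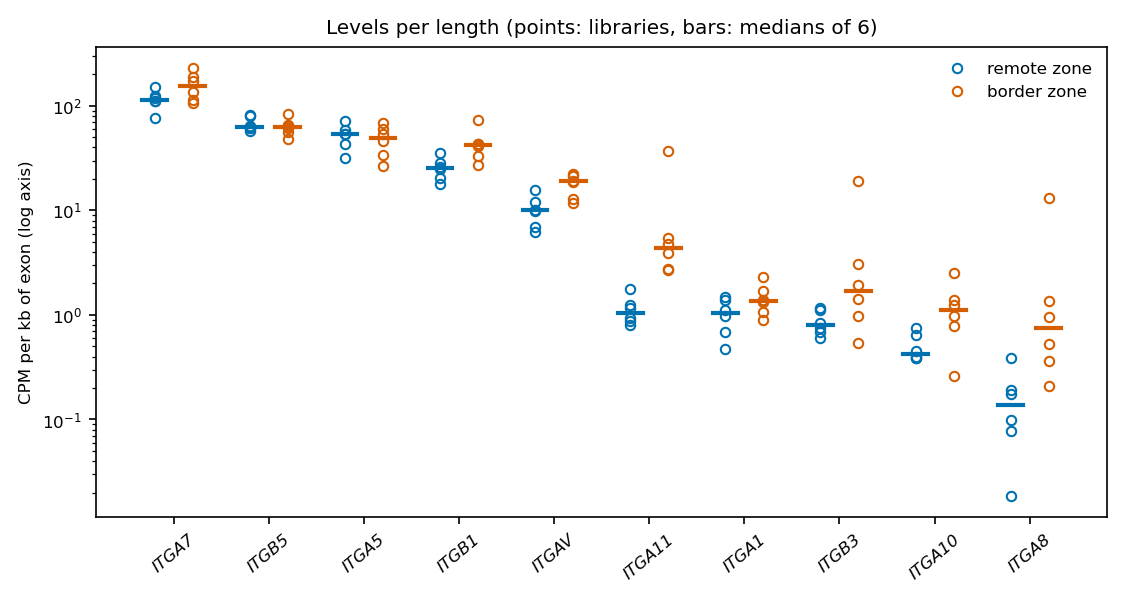
Level of each of the 10 subunits in CPM per kilobase of merged RefSeq exons (log axis), with 1 point for each library and a bar at the median of the 6, in the order of the remote zone medians. ITGA7, ITGB5 and ITGA5 lie at the upper end in both zones, and the ranges of ITGA8, ITGA11 and ITGB3 widen in the border zone.

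The ligands of these receptors were read in the same fit. Of 9 collagen genes, 6 were higher in the border zone and 0 lower (edgeR, against 2.06% and 0.0144% of all genes), with a median log2 fold change of 2.62 (0.04 over all genes), or 1.56 without animal 1022 and 2.03 with the animal as a block. Among them were COL1A1 (4.05, adjusted p = 0.0295) and COL3A1 (2.98, adjusted p = 0.0276), which encode chains of the fibrillar collagens that the ITGA11 receptor binds, and COL1A2 (3.27), COL5A1 (2.93) and COL6A3 (2.62). Of 15 ligands of RGD-binding and alpha-V integrins, 6 were higher and 0 lower, with a median of 2.25, or 1.11 without animal 1022 and 1.42 with the block. They included SPP1, which encodes osteopontin (8.48, adjusted p = 0.0293), TNC, tenascin-C (5.31, adjusted p = 0.0253), FN1, fibronectin (5.09, adjusted p = 0.0294), POSTN, periostin (3.44, adjusted p = 0.0396) and TGFB3, which encodes the latent growth factor TGF-beta-3 (2.43, adjusted p = 0.0123). Without animal 1022 the log2 fold changes were 2.37 for COL1A1, 2.01 for COL3A1, 1.98 for COL1A2, 1.81 for COL5A1 and 1.56 for COL6A3. Among the RGD and alpha-V ligands they were 5.98 for SPP1 (edgeR adjusted p = 0.0581), 3.53 for TNC, 2.71 for FN1, 2.50 for POSTN and 1.85 for TGFB3. Not every ligand was higher. VTN, vitronectin (-0.43, edgeR adjusted p = 0.271), and FBLN5 (-0.25, edgeR adjusted p = 0.334) were lower in the border zone of 6 of 6 animals, as were 11.1% of all genes. Without animal 1022 they had -0.30 and -0.18. NPNT, nephronectin, had 0.42 (edgeR adjusted p = 0.419).

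With the animal as a block 0 of the collagens and 1 of the RGD and alpha-V ligands, POSTN (edgeR adjusted p = 0.0410), were called, against 0.289% of all genes called higher, and without animal 1022 the counts were 6 and 5, against 1.14%. FN1 ran from 147.5 to 7553 CPM in the border zone and from 25.8 to 63.0 in the remote zone, so its zones did not overlap while those of ITGA5, the chain of its main receptor, did. Of 5 laminin genes tested, 0 were called by edgeR in either direction, DESeq2 called 0 of the 4 to which it gave a p, 3 were higher at an unadjusted p under 0.05 (17.0% of all genes), and the median log2 fold change was 0.44.

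Of 14 other integrin subunits tested, 1 was called higher and 0 lower by edgeR, against 2.06% and 0.0144% of all genes, and the median log2 fold change was 0.85. DESeq2 called 4 of the 14 higher and 0 lower, and 8 were higher and 0 lower at an unadjusted p under 0.05 in edgeR, against 8.42% and 17.0% of all genes on the higher side. The member of this list called by edgeR was ITGB4, the beta chain of the laminin receptor of hemidesmosomes (1.42, SE 0.33, edgeR adjusted p = 0.0452, higher in 5 of 6 animals). It was not called with the animal as a block (1.25, edgeR adjusted p = 0.0935) or without animal 1022 (1.05, edgeR adjusted p = 0.125). ITGB4, the ITGA2, ITGB6, ITGB8, VTN, FBLN5 and NPNT given above, and ITGB2, ACTN1, TLN1 and FERMT2 were chosen after their values were seen. ITGB2, the beta chain of leukocytes, ran from 8.91 to 192.1 CPM in the border zone and from 8.10 to 11.0 in the remote zone (2.20, SE 0.71, edgeR adjusted p = 0.0953), and its log2 fold change was 0.68 without animal 1022 and 1.05 with the block. Of 29 genes of the adhesion machinery that couples integrins to actin, 0 passed the test by edgeR in either direction, and 10 were higher and 1 lower at an unadjusted p under 0.05 (17.0% and 7.78% of all genes). DESeq2 called 4 of them higher and 0 lower (8.42% and 1.83% of all genes), and 22 had a log2 fold change above 0 (53.3% of all genes). The median was 0.34, or 0.21 without animal 1022. ACTN1, an alpha-actinin that crosslinks actin at adhesions, came nearest (1.80, SE 0.44, adjusted p = 0.0501), and 1 of the 29 was called without animal 1022, ACTN1 itself (1.01, edgeR adjusted p = 0.0329). TLN1, talin, had 0.64 (adjusted p = 0.174), or 0.32 without animal 1022, and FERMT2, kindlin-2, had 0.03 (adjusted p = 0.920).

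Of the markers of other cell types, those of fibroblasts held most of the edgeR calls. Of 9 fibroblast markers tested, 5 were called higher (LUM, PDGFRA, FAP, PI16 and CILP), against 2.06% of all genes. With the animal as a block 2 were called, PI16 and CILP (edgeR adjusted p = 0.0265 and 0.0209), against 0.289% of all genes, and without animal 1022 the count was 4, against 1.14%. The summed level was highest in animal 1022 at 3076 CPM, with 1333 the next. Macrophage markers summed to 128.7 to 1501 CPM, with 362.6 the next below animal 1022, against 116.9 to 251.5. Of these, edgeR called 0 of 9, while 9 were higher at an unadjusted p under 0.05 and DESeq2 called 5 of 8 higher, against 17.0% and 8.42% of all genes.

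Smooth muscle and pericyte markers summed to 720.4 to 3234 CPM in the border zone, with 1149 the next below animal 1022, against 503.3 to 815.8 in the remote zone. Of these, edgeR called 0 of 12, while 8 were higher at an unadjusted p under 0.05 and DESeq2 called 5 of 11 higher, against the same shares of all genes. Endothelial markers summed to 440.0 to 632.9 against 322.9 to 754.0 CPM and Schwann cell markers to 4.14 to 21.2 against 4.41 to 11.0 CPM. Of these, 0 of 11 and 0 of 4 were called by edgeR or DESeq2 or had an unadjusted p under 0.05. No marker with an identifier was at 0 in all libraries, and the part of these cell types in the values of the integrins was not tested.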

How the data were processed

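Poly(A)-selected, nondirectional RNA libraries of the border and the remote zone of 6 pigs were measured. The authors aligned reads to Sscrofa11.1 with the genes of Ensembl 113 by STAR and counted them on genes with featureCounts, and the deposited values are these raw counts, without normalization. How featureCounts treated reads that match more than 1 place is not given in the sources used here. Zone and animal came from the sample titles, and ages and times from the study's methods. A symbol could be paired with 15623 of the 35682 identifiers, and 9 listed symbols had no identifier by it (ADGRE1, GP1BA, ITGAX, LAMA2, MYH7, PF4, S100B, THY1 and TTN).

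Border zone was tested against remote zone across 13844 genes that passed filterByExpr, with the quasi-likelihood test of edgeR 4.0.16 (robust, TMM, zone as the only term) in R 4.3.3, Benjamini-Hochberg adjustment over all genes tested and a threshold of 0.05. The study's methods name DESeq2 and give no model formula, and DESeq2 1.42.0 is an alternative here. DESeq2 gave no p for ITGA8 and ITGA11, since it marked their count in the border zone library of animal 1022 as an outlier (Cook's distance). Both were left out of its counts. Standard errors were taken as log2 fold change over the root of F. CPM values carry TMM factors, and log2 ratios used a prior count of 2. The 3 ratios were tested by exact permutation of signs over the 6 animals (SciPy 1.17.1). Lengths, loci and upstream sequence came from the RefSeq annotation and genome of Sscrofa11.1.

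The libraries are paired, since each animal number gave 1 of each zone. Their deviations from the zone means correlated across genes with a mean r of 0.35, from -0.03 in animal 1022 to 0.57 in animal 1323. The labels name 1 library per zone and animal. In the fit with zone as the only term, p-values measure the spread between the libraries of a zone and do not use the pairing. With the animal as a block, and in the permutation of signs, they measure the spread of the differences within animals. Libraries held 15130210 to 31618680 counts, and those of a zone differed by more than sampling noise (lowest chi-square per gene 27.3).

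The 10 members, the gene lists and the tests were chosen with earlier results of these data known. Named genes are all members, up to 5 genes of each list past the threshold with the largest change and 1 direction in 6 of 6 animals, and the 5 genes nearest in pattern to the member with the largest change. Outside this rule, ITGA2, ITGB2, ITGB4, ITGB6, ITGB8, VTN, FBLN5, NPNT, ACTN1, TLN1, FERMT2 and the markers named as called were chosen after their values were seen. The steps were tested on simulated data. Alternatives were the animal as a block, DESeq2, its size factors, scaling by library totals, other filters (none, or a minimum of 10 counts in every library), other prior counts and leaving out each animal. The block without animal 1022 or 3622 was added after the data were seen.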

Additional observations from a re-analysis of the deposited data

Results flagged for a closer look

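The ITGA11 level in the border zone of animal 1022 stood apart from the other 5 border zone libraries, at a log2 CPM of 7.58 where the next was 4.84. Without this animal the log2 fold change of ITGA11 was 1.70 in place of 3.05. In the remote zone, the log2 ratio of ITGA11 to ITGA10 in animal 1022 stood apart on the low side, at -0.14 where the next was 0.64. Both come from the same animal, from a gap to the nearest library that is large against the range of the 6 libraries (Dixon's criterion at 95%). Of 26 groups of 6 libraries examined, 2 stood apart in this way, and chance flags about 1 in 20 groups.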

How the results depend on the processing

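The number of genes past the threshold was 287 (285 higher and 2 lower) and moved with the processing, to 41 with the animal as a replicate block, 1719 by DESeq2 (1412 higher and 307 lower), 1551 on library totals, 139 with no filter and 149 with at least 10 counts in every library. Leaving out 1 animal gave 0 to 519 (163 without 1022, 519 without 1322, 3 without 1323, 15 without 1922, and 0 by edgeR without 1623 or 3622, with 2662 and 2448 at an unadjusted p under 0.05). With the replicate block it was 856 (569 higher and 287 lower) without animal 1022 and 0 by edgeR without animal 3622, where 2779 had an unadjusted p under 0.05. Of the 10 members, 1 was called higher, against 2.06% of all genes. With the replicate block it was 0 (5 at an unadjusted p under 0.05, as 4069 of all 13844 genes). DESeq2 called 4 higher, against 8.42% of all genes, and 6 were called higher on library totals, against 11.2%. With no filter it was 0 by edgeR (6 at an unadjusted p under 0.05, as 7776 of all 30085 genes). Leaving out 1 animal gave 0 to 2 members (ITGA8 and ITGA11 without 1322, against 3.64% of all genes called higher). With the block it was 2 without animal 1022 (ITGA11 and ITGAV, against 4.11% of all genes called higher). It was 0 by edgeR with the block and without animal 3622 (4 at an unadjusted p under 0.05, as 2779 of all 13858 genes). ITGA5 (0.10) and ITGB5 (0.17) changed sign on library totals, which moved the median of all genes to 0.32. Of 137 member values recomputed, 117 kept direction and side of the threshold, 11 newly passed it and 7 no longer did. The block changed no other call of a member. For the ratios, prior counts of 0.5 and 5 changed no call. Treating the zones as unpaired, with no replicate block, left ITGA5 to ITGA7 at -0.58 with an adjusted p of 0.152 (exact permutation). Leaving out 1 animal gave 0.88 to 1.53 for ITGA11 to ITGA10, 0.70 to 1.88 for ITGB3 to ITGB5 and -0.69 to -0.44 for ITGA5 to ITGA7, where 5 animals cannot go below p = 0.0625 (exact permutation). The cause was not tested for any of these. Depth limited ITGA8 most, at 3 counts in the remote zone of animal 1022.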
